A study of Caenorhabditis elegans with 6 samples.

Results

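The troponins and tropomyosin are the calcium switch of the muscle thin filament, and 9 of the 20473 genes in the deposited table encode them under the chosen gene symbols. The genes were taken by symbol, not by their values: lev-11 for tropomyosin, tnt-2, mup-2 and tnt-3 for troponin T, unc-27, tni-1 and tni-3 for troponin I, and pat-10 and tnc-2 for troponin C. The troponin genes tnt-4 and tni-4, which are known from the pharynx, lie outside this choice and are given beside it. The samples were whole worms of Caenorhabditis elegans, wild-type strain N2, held at 20 °C for 72 h. One group of 3 libraries came from worms exposed to 100 µg/L of diquat dibromide monohydrate, a redox-cycling herbicide, and the other group of 3 libraries came from worms at 0 µg/L, the control. The labels number the libraries 1 to 3 in each group and do not say whether each number was a culture of its own. The p-values therefore cover the spread between these libraries alone, and that spread may be technical. The sources used here do not give the stage at which exposure began.

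In resting striated muscle, tropomyosin lies along the actin filament and keeps myosin heads from it. Calcium that binds troponin C releases the inhibition that troponin I exerts, and troponin T ties the complex to tropomyosin, so that tropomyosin moves and contraction can start. In Caenorhabditis elegans the body wall muscle that drives crawling uses this switch together with regulation through the myosin filament. Several of the genes were found through their movement or embryonic phenotypes: lev-11 through resistance to levamisole, unc-27 through uncoordinated movement, mup-2 through misplaced muscle and pat-10 through embryos that arrest paralysed.

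The genes sit at separate places in WBcel235, and 5 of the 9 are on chromosome X. These are tnt-2 (8721546 to 8723550, minus strand), mup-2 (6408471 to 6410227, minus strand), tnt-3 (7937633 to 7945099, minus strand), tni-1 (11375887 to 11377470, minus strand) and unc-27 (8789456 to 8790621, plus strand). lev-11 (14621169 to 14631094) and pat-10 (5018783 to 5020358) are on the minus strand of chromosome I, tni-3 (16833638 to 16835128) is on the minus strand of chromosome V, and tnc-2 (10466852 to 10468358) is on the plus strand of chromosome II. The annotation gives lev-11 20 transcripts, tnt-3 11 and pat-10 6, and each of the other 6 genes has 1, so a gene count sums over isoforms that can differ between tissues. Exons of the opposite-strand gene clec-143 overlap 157 nt of the 819 nt of tnc-2. The sources used here do not give the strand setting of the counting, so reads of that stretch cannot be assigned to either gene with certainty. clec-143 had 71, 53 and 74 counts in the diquat libraries and 100, 70 and 76 counts in the control libraries.

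Levels per length formed a high and a low tier. FPKM, the fragments mapped to a gene scaled for its length and the library total, as deposited by the authors, allows genes of unequal length to be compared. pat-10, the troponin C of body wall muscle, averaged 580.9 ± 50.8 FPKM in diquat worms and 639 ± 72.5 FPKM in control worms (SD, n = 3 each). lev-11 averaged 547.6 ± 56.9 FPKM in diquat worms and 644.8 ± 41.9 FPKM in control worms. In deposited FPKM pat-10 and lev-11 exchanged rank between libraries, with pat-10 higher in 3 of 6. By that measure the order of this pair is not beyond their spread. In CPM (counts divided by the TMM-adjusted library size) per kilobase of exon, pat-10 was above lev-11 in each library. The means were then 393 for pat-10 and 326 for lev-11 in diquat worms, and 444 and 392 in control worms. The order of this pair thus depended on the measure.

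Below them, the troponin I gene unc-27 averaged 241 ± 23.2 FPKM in diquat worms and 285 ± 43.5 FPKM in control worms. The troponin T genes mup-2 and tnt-2 followed. mup-2 averaged 180.5 ± 12.1 FPKM in diquat worms and 198 ± 6.53 FPKM in control worms, and was above tnt-2 in 6 of 6 libraries although their ranges over all libraries overlapped. tnt-2 averaged 142 ± 12.6 FPKM in diquat worms and 179 ± 12.7 FPKM in control worms.

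The low tier held the other 4 genes, and in deposited FPKM its neighbours overlapped in range at every step. In CPM per kilobase of exon tnt-3 lay apart, at 6.69 to 8.45 over all libraries, with the exons of its 11 annotated transcripts merged. By that measure tnc-2 was at 19.1 to 25.7 and the pharyngeal tnt-4 at 11.5 to 14.6. tni-1 averaged 29.96 ± 4.27 FPKM in diquat worms and 29.1 ± 4.201 FPKM in control worms. tni-3 averaged 22.8 ± 0.646 FPKM in diquat worms and 28.1 ± 2.80 FPKM in control worms, and tnc-2, known as the troponin C of the pharynx, 20.2 ± 1.504 FPKM in diquat worms and 23.3 ± 2.75 FPKM in control worms. tnt-3 had the lowest mean of the 9, at 18.9 ± 3.38 FPKM in diquat worms and 16.8 ± 2.34 FPKM in control worms. In deposited FPKM the mean over all libraries was 34.2 times higher for pat-10 than for tnt-3, a ratio that depends on the measure of length. The pharyngeal genes lay in the same tier: tni-4 averaged 29.8 ± 1.23 FPKM in diquat worms and 33.1 ± 3.77 FPKM in control worms, and tnt-4 13.6 ± 0.788 FPKM in diquat worms and 14.4 ± 2.17 FPKM in control worms.

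**Figure D1:**
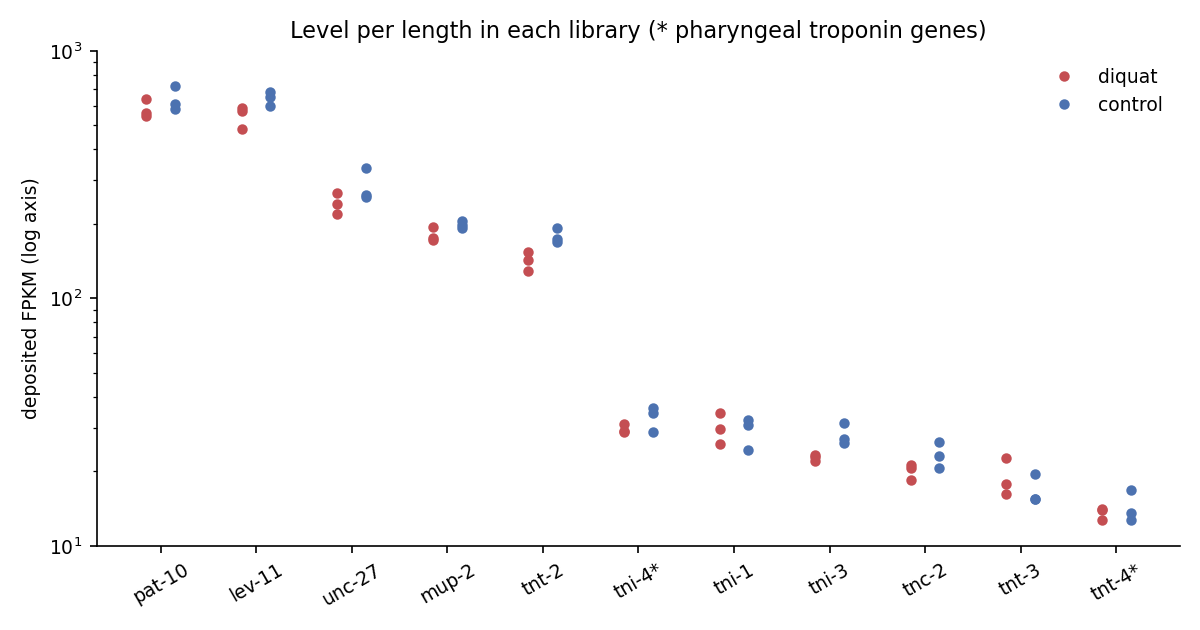
Deposited FPKM (log axis) of the 9 genes and of tnt-4 and tni-4, marked with an asterisk, with 1 point per library and the diquat libraries left of the control libraries; genes are ordered by their mean over all libraries. pat-10, lev-11, unc-27, mup-2 and tnt-2 lie above 100 FPKM in each library and the other 6 genes lie between 12.7 and 35.96 FPKM.

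In diquat worms 7 of the 9 genes had an estimated level below that of control worms, by 10.8% (mup-2) to 22.3% (tnt-2). The 7 are tropomyosin, the troponin T genes tnt-2 and mup-2, the troponin I genes unc-27 and tni-3 and both troponin C genes, while tni-1 and tnt-3 lay at or above control. None of these differences passed the test over all genes. When libraries were compared within their numbers 5 passed, all as lower, beside 4.0% of all tested genes lower and 4.51% higher, and without pair 1 of these numbers 0 passed. Whether exposure to diquat goes with a different amount of these transcripts was tested with the fit over all genes. No gene of the 9 passed the threshold of 0.05 on the Benjamini-Hochberg adjusted p of edgeR's quasi-likelihood test, in which 0.913% of the 13252 tested genes were lower with diquat and 0.00% higher. At an unadjusted p under 0.05, 2 of the 9 (tnt-2 and tni-3) were lower and 0 higher, beside 4.68% of all tested genes lower and 1.54% higher, and DESeq2 and limma-voom had 0 of the 9 past their adjusted thresholds. Of the 9 estimated log2 fold changes, diquat over control, 8 were below 0 (that of tni-1 by less than the rounding), as were 47.3% of those of all tested genes. The median was -0.25 over the 9 genes and 0.01 over all tested genes. The genes were chosen with earlier results of these data known, and they share libraries, so these counts describe the set and are no test of it. RNA came from whole worms and levels are relative to each library. Less of these transcripts per muscle cell and a smaller share of muscle in the worm's RNA therefore cannot be told apart.

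For the abundant genes the spread between libraries, and not depth, set the precision of these estimates. All 9 genes passed the expression filter, with between 349 (tnc-2) and 23939 (lev-11) counts in a library, and counting alone gives the lowest lev-11 count an error of 0.785% of its value. lev-11 varied between libraries by 17.4% of its mean in the diquat group and by 10.7% in the control group. The 95% intervals of the log2 fold changes reached 0.27 to 0.32 to either side. Over the 9 genes their lower ends corresponded to levels 13.3% to 36.4% lower with diquat, the first for tnt-3 and the last for tnt-2. Single libraries carried some of the estimates. Without diquat library 3 the log2 fold change was -0.15 for lev-11, -0.17 for unc-27, -0.12 for pat-10 and -0.09 for mup-2. mup-2 was at -0.29 without diquat library 2, and pat-10 at -0.10 without control library 1.

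lev-11 encodes all tropomyosins of the worm, through alternative promoters and splicing, those of muscle and those of other tissues. Its level in CPM, counts divided by the TMM-adjusted library size, was 802, 896 and 629 in diquat libraries 1, 2 and 3, against 972, 1010 and 822 in control libraries 1, 2 and 3. Diquat library 3 was the lowest of all and control library 3 the lowest of its group, and the groups overlapped because diquat library 2 exceeded control library 3. The mean was 776 ± 135 CPM in diquat worms and 935 ± 99.6 CPM in control worms (SD, n = 3 each). This is a log2 fold change of -0.27 (standard error 0.15, 95% interval -0.58 to 0.05, edgeR adjusted p = 0.819). In deposited FPKM, which is not TMM-scaled, the highest diquat library (587) was below the lowest control library (601), so whether the groups overlap depended on the scaling.

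Among the troponin T genes, tnt-2 had the largest difference of the 9 genes in the fit without the block. Its level was 211, 248 and 177 CPM in diquat libraries 1, 2 and 3, against 290, 284 and 244 CPM in control libraries 1, 2 and 3. Only diquat library 2 reached above a control library, number 3. Its log2 fold change was -0.36 (standard error 0.13, 95% interval -0.65 to -0.07, edgeR adjusted p = 0.538), and the authors' deposited table gives it an FDR of 0.688. mup-2, whose protein is the troponin T named for muscle position, had 259, 317 and 237 CPM in diquat libraries 1, 2 and 3, against 308, 324 and 278 CPM in control libraries 1, 2 and 3. Its groups overlapped, and its log2 fold change was -0.16 (standard error 0.13, 95% interval -0.44 to 0.11, edgeR adjusted p = 0.821).

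tnt-3, a further troponin T gene, did not share this direction. It had 36.7, 37.4 and 41.6 CPM in diquat libraries 1, 2 and 3, against 32.9, 35.8 and 41.4 CPM in control libraries 1, 2 and 3. Library 3 was the highest of both groups, the reverse of lev-11, tnt-2 and mup-2, where it was the lowest. For tnt-3 the log2 fold change was 0.07 (standard error 0.13, 95% interval -0.21 to 0.35, edgeR adjusted p = 0.919). It was -0.0030 without diquat library 3 and -0.0014 without control library 1. The estimate for the pharyngeal tnt-4 was -0.13 on the log2 scale, with a 95% interval from -0.43 to 0.17 (edgeR adjusted p = 0.856).

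Among the troponin I genes, the abundant unc-27 had 243, 240 and 187 CPM in diquat libraries 1, 2 and 3, against 312, 266 and 231 CPM in control libraries 1, 2 and 3. Diquat libraries 1 and 2 lay between control libraries 2 and 3, so the groups overlapped. For unc-27 the log2 fold change was -0.27 (standard error 0.14, 95% interval -0.58 to 0.03, edgeR adjusted p = 0.819). It was -0.15 without control library 1, the library with the highest unc-27 level. tni-3 had 20.8, 23.4 and 20.5 CPM in diquat libraries 1, 2 and 3, against 30.004, 27.2 and 24.9 CPM in control libraries 1, 2 and 3. All diquat libraries were below all control libraries, which held for 1 of the 9 genes in TMM-scaled CPM, beside 6.68% of all tested genes; 0 of the 9 had the opposite order, beside 4.07%. The tni-3 log2 fold change was -0.34 (standard error 0.14, 95% interval -0.64 to -0.05, edgeR adjusted p = 0.638). In deposited FPKM the diquat libraries were below the control libraries for 3 of the 9 genes (tni-3, tnt-2 and lev-11), beside 6.85% of all tested genes, and above them for 0, beside 2.97%.

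tni-1 was the gene closest to no difference. It had 30.2, 28.6 and 32.5 CPM in diquat libraries 1, 2 and 3, against 33.3, 27.5 and 30.7 CPM in control libraries 1, 2 and 3. Its diquat libraries all lay within the range of the control libraries. Its log2 fold change was -0.00030 (standard error 0.13, edgeR adjusted p = 1.000), and the 95% interval, -0.28 to 0.28, includes the estimate of -0.27 for unc-27. The pharyngeal tni-4 had 25.1, 25.5 and 21.9 CPM in the diquat libraries, against 29.5, 25.8 and 27.2 CPM in the control libraries, so the groups did not overlap. In deposited FPKM the tni-4 groups did overlap, with 31.2 in diquat library 1 against 28.8 in control library 2. The tni-4 estimate was -0.18 on the log2 scale (edgeR adjusted p = 0.820).

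The troponin C genes differ by tissue. pat-10 had 421, 388 and 345 CPM in diquat libraries 1, 2 and 3, against 481, 444 and 379 CPM in control libraries 1, 2 and 3. In both groups library 1 was the highest and library 3 the lowest, and the groups overlapped. pat-10 thus had a log2 fold change of -0.18 (standard error 0.13, 95% interval -0.45 to 0.10, edgeR adjusted p = 0.820). tnc-2 had 16.4, 15.9 and 15.7 CPM in diquat libraries 1, 2 and 3, against 21.03, 20.2 and 15.99 CPM in control libraries 1, 2 and 3. The SD of the diquat libraries was 2.17% of their mean, less than the counting error of 5.35% at its lowest count, and control library 3 lay among them. For tnc-2 the log2 fold change was -0.25 (standard error 0.15, 95% interval -0.57 to 0.07, edgeR adjusted p = 0.819).

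**Figure D2:**
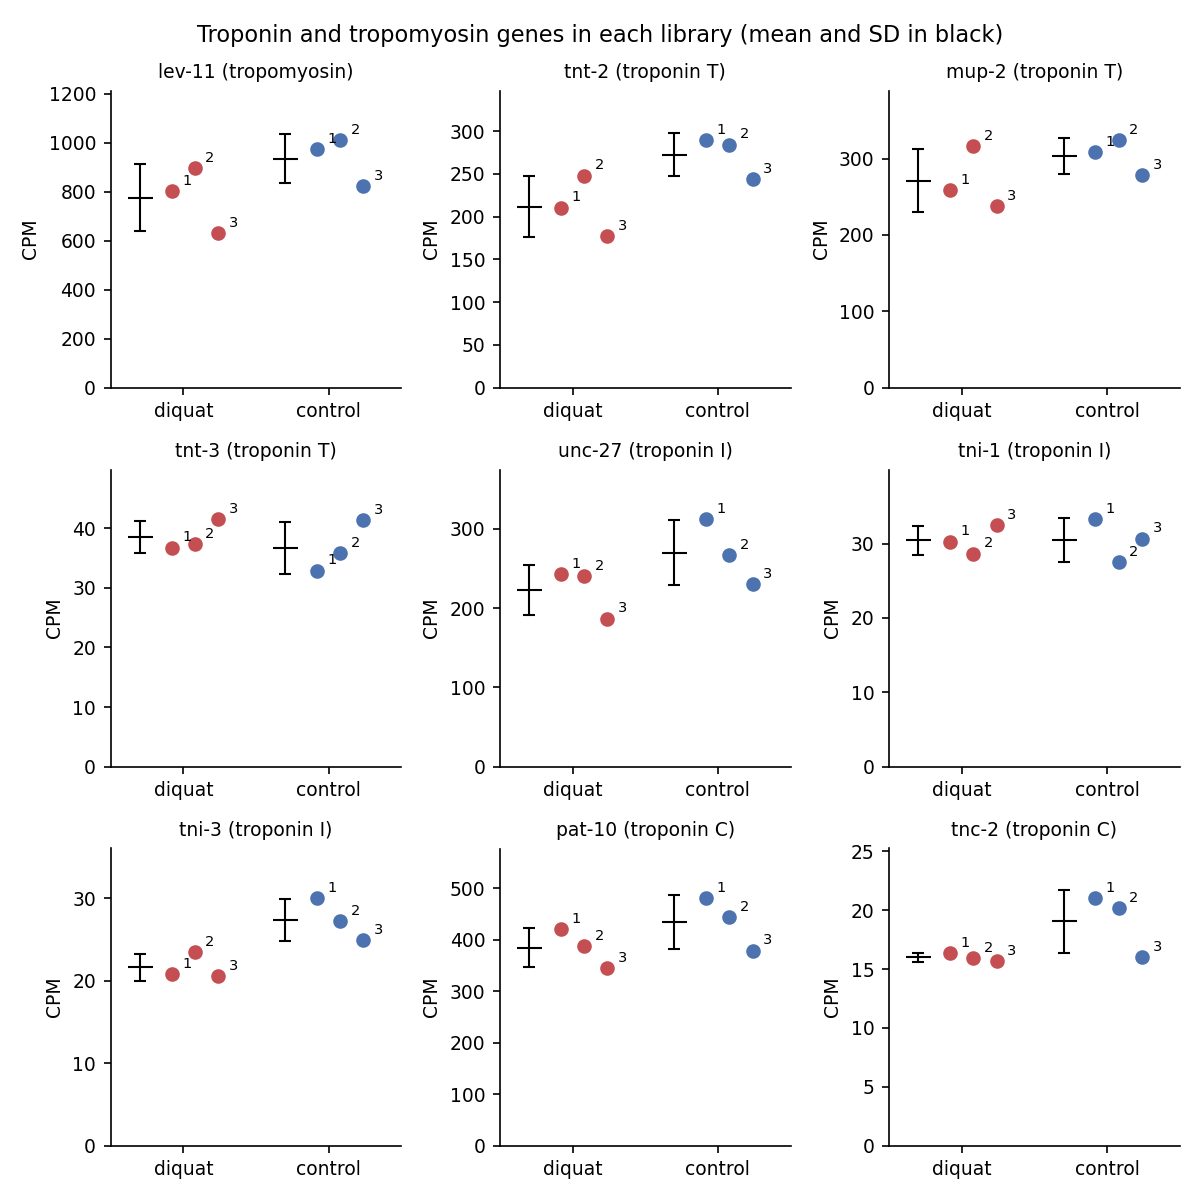
CPM (TMM-scaled) of each gene in each library, 1 panel per gene with the vertical axis from 0 and the library number beside each point; the black bar left of each group is its mean ± SD (n = 3). For lev-11, tnt-2, mup-2, unc-27, tni-3, pat-10 and tnc-2 library 3 is the lowest of both groups, while for tnt-3 it is the highest of both.

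Libraries of the same number deviated together across genes, most clearly number 3, so the comparison was also made within numbers. For numbers 1 and 2 the pairing rests on the shared numbers alone, which the labels do not call pairs. Diquat library 2 deviated as closely with control library 1 as with control library 2. The crossed pairing was not fitted. With the number entered as a replicate block, edgeR put 5 of the 9 genes past the threshold as lower (tnt-2, lev-11, unc-27, tni-3 and pat-10) and 0 as higher, beside 4.0% of all tested genes lower and 4.51% higher. At an unadjusted p under 0.05 the blocked fit adds mup-2 and tnc-2 to these. The share of all tested genes at that level was not counted for the blocked fit, so this addition cannot be weighed. The blocked log2 fold change was -0.37 for tnt-2 (standard error 0.06, blocked edgeR adjusted p = 0.000165), -0.28 for lev-11 (standard error 0.05, blocked edgeR adjusted p = 0.000609) and -0.27 for unc-27 (standard error 0.06, blocked edgeR adjusted p = 0.00443). It was -0.34 for tni-3 (standard error 0.09, blocked edgeR adjusted p = 0.0205) and -0.17 for pat-10 (standard error 0.05, blocked edgeR adjusted p = 0.0428). mup-2 and tnc-2 had blocked estimates of -0.17 and -0.24 (blocked edgeR adjusted p = 0.0708 and 0.152), and tnt-3 and tni-1 of 0.07 and 0.00 (blocked edgeR adjusted p = 0.648 and 0.995). The estimates thus stayed where they were and the standard errors became smaller.

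**Figure D3:**
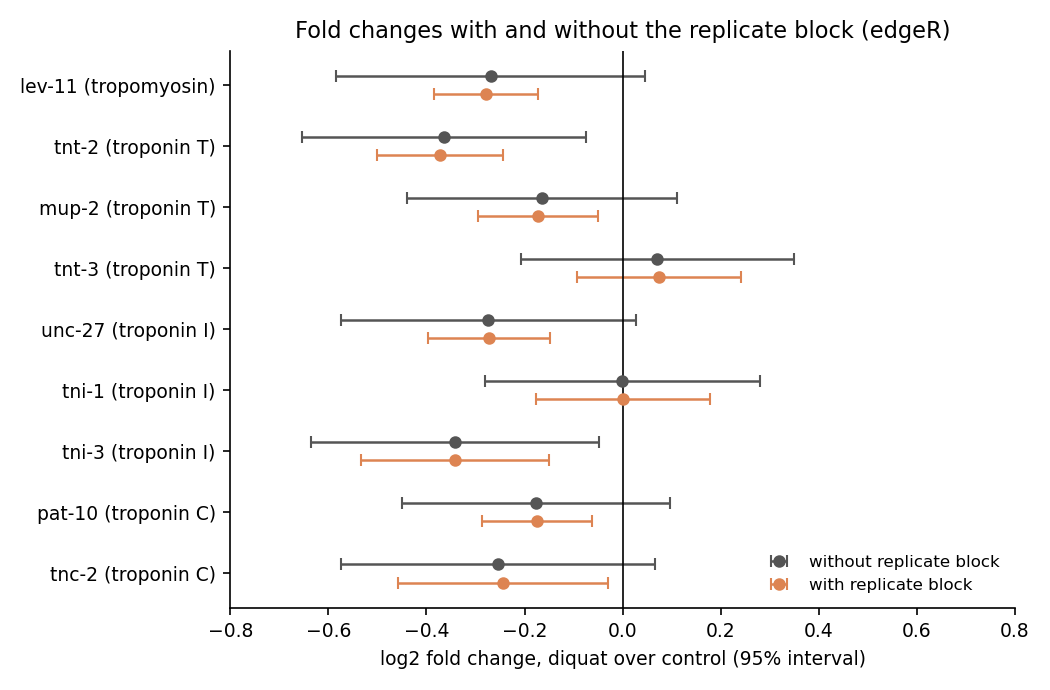
Log2 fold change, diquat over control, of the 9 genes with its 95% interval, from edgeR without the replicate block (grey, upper of each pair) and with it (orange, lower). The estimates of both fits lie close together; with the block the intervals of tnt-2, lev-11, unc-27, tni-3, pat-10, mup-2 and tnc-2 lie below 0, and those of tnt-3 and tni-1 span it.

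The differences within pairs were of unequal size. In 7 of the 9 genes the diquat library was below the control library of its number in all 3 pairs, beside 19.6% of all tested genes. For lev-11 the differences in log2 CPM were -0.28, -0.17 and -0.39 in pairs 1, 2 and 3, and for pat-10 -0.19, -0.20 and -0.14. tni-3 ranged from -0.53 in pair 1 to -0.21 in pair 2, and tnc-2 from -0.36 in pair 1 to -0.03 in pair 3. tnt-3 was above its control in all 3 pairs, by 0.16, 0.06 and 0.01, and tni-1 was below in pair 1 (-0.14) and above in pairs 2 and 3 (0.06 and 0.08). Without pair 1 the blocked fit put 0 of the 9 genes past the threshold (tnt-2, blocked edgeR adjusted p = 0.164, was the nearest), beside 1.36% of all tested genes lower. The blocked log2 fold changes without pair 1 were -0.28 for lev-11, -0.33 for tnt-2, -0.17 for pat-10, -0.23 for unc-27 and -0.25 for tni-3, in a fit with 1 pair fewer. Without pair 2 it put 4 past it, all of the 5 but pat-10, beside 2.48%, and without pair 3 the same 5, beside 3.64%.

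**Figure D4:**
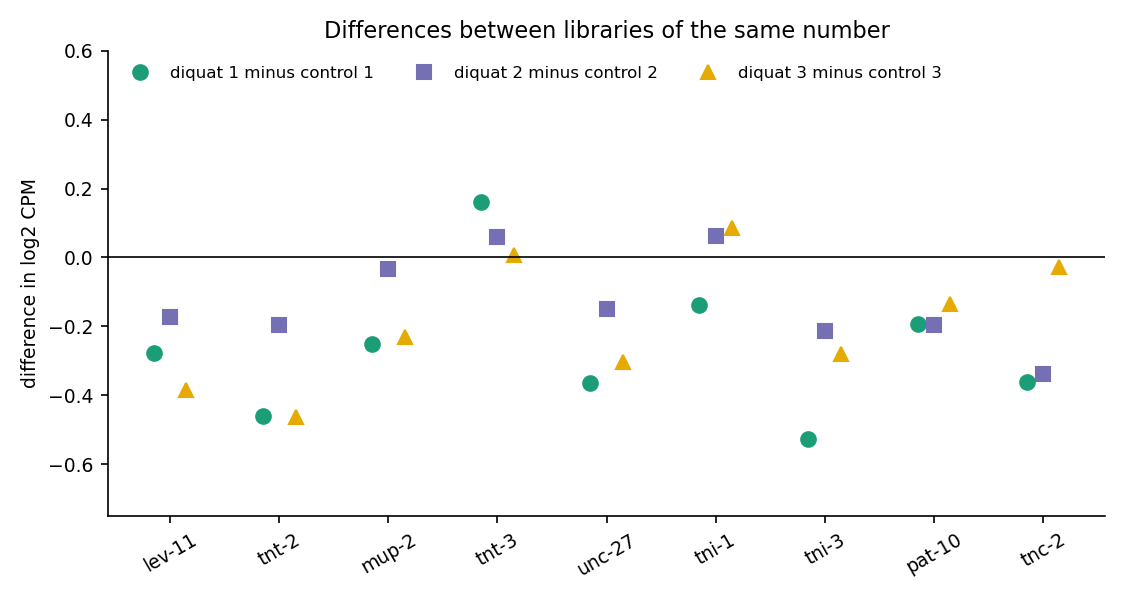
Difference in log2 CPM between the diquat and the control library of the same number, 1 symbol per pair and gene. Circles (pair 1) and triangles (pair 3) lie below the squares (pair 2) for tnt-2, mup-2, lev-11, unc-27 and tni-3; the 3 values of pat-10 lie between -0.20 and -0.14, and those of tnt-3 are all above 0.

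Fold changes in these libraries varied with exon length, and the 9 genes span much of the length range, from 819 nt (tnc-2) to 4917 nt (tnt-3). Exon length here merges the exons of all annotated transcripts of a gene. It can therefore exceed the length of the transcripts present for lev-11, tnt-3 and pat-10, which have 20, 11 and 6 transcripts. Among all tested genes, log2 fold changes had a median of -0.12 in the decile with the shortest exon length and 0.12 in the decile with the longest. tnt-3, the gene above 0, has a longer merged exon length than 96.9% of the tested genes. With the length trend of each library removed its log2 fold change was -0.05 (edgeR adjusted p = 0.916), a value that rests on the merged length. lev-11 (2383 nt, merged over 20 transcripts) and tnt-2 (1513 nt, 1 transcript) lay below the trend for these lengths. Their estimates were -0.36 and -0.39 with the trend removed (edgeR adjusted p = 0.838 and 0.541). The shift of lev-11 thus rests on the merged length. The short genes tni-3, unc-27, tnc-2 and pat-10 were nearer to 0 with the trend removed, at -0.30, -0.23, -0.20 and -0.14 (edgeR adjusted p = 0.622, 0.871, 0.871 and 0.871). With the trend removed and the block, 5 of the 9 passed as lower (lev-11, tnt-2, unc-27, mup-2 and tni-3), beside 6.41% of all tested genes lower and 3.30% higher. pat-10 lost the call there (edgeR adjusted p = 0.104) and mup-2 gained it (edgeR adjusted p = 0.00970).

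**Figure D5:**
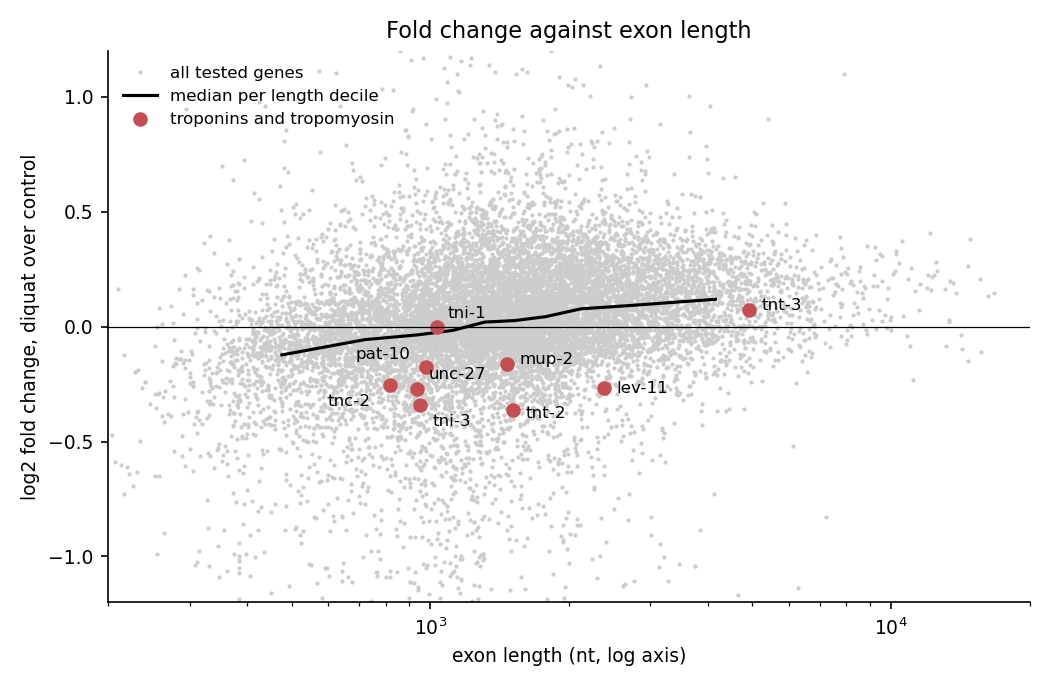
Log2 fold change without the block against exon length merged over transcripts (log axis) for all tested genes (grey), the median per length decile (line) and the 9 genes (red). The line runs from -0.12 to 0.12; tni-1 and tnt-3 lie close to it, and the other 7 genes lie below it.

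The make-up of each troponin class was similar in both groups, and only inside troponin T did shares lie apart without overlap. Shares are of the summed deposited FPKM of a class, pharyngeal genes included. mup-2 made up 49.97%, 51.5% and 51.0% of troponin T transcripts in diquat libraries 1, 2 and 3, against 48.0%, 49.4% and 48.3% in control libraries 1, 2 and 3. tnt-2 made up 40.9%, 40.8% and 38.1% in the diquat libraries, against 45.2%, 43.6% and 42.5% in the control libraries. The groups did not overlap for either gene, and the ratio of mup-2 to tnt-2, which have like exon lengths of 1465 and 1513 nt, was 1.27 ± 0.0602 in diquat worms and 1.11 ± 0.0420 in control worms (SD, n = 3 each). It was 1 of 6 ratios computed between these genes and the only one whose groups did not overlap. With 3 libraries against 3, randomly labelled groups lie apart, in either direction, with a chance of 0.1. The ratio was picked out after its values were seen and is given without a test. unc-27 made up 74.4% ± 2.51 of troponin I in diquat worms and 75.8% ± 1.96 in control worms. pat-10 made up 96.6% ± 0.273 of troponin C in diquat worms and 96.5% ± 0.0996 in control worms. In this balance of body wall and pharyngeal troponin C the groups overlapped.

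Summed over a class, and again in deposited FPKM, troponin T was at 349, 378 and 338 in diquat libraries 1, 2 and 3, against 427, 399 and 398 in control libraries 1, 2 and 3. Troponin I was at 348, 318 and 306 in the diquat libraries, against 435, 341 and 350 in the control libraries. Troponin C was at 660, 563 and 581 in the diquat libraries, against 747, 635 and 605 in the control libraries. Among the troponin sums only those of troponin T had no overlap between the groups, and the single tropomyosin gene had none either. For each sum the chance of no overlap under random labels is again 0.1. In TMM-scaled CPM troponin T overlapped too, with 619 in diquat library 2 against 584 in control library 3.

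No gene of the other parts of the contractile apparatus passed the edgeR threshold without the block. Of 11 other thin filament genes tested, such as actins and actin-binding proteins, 0 passed and 1 was lower at an unadjusted p under 0.05, and the median log2 fold change was -0.08. Of 14 thick filament genes 0 passed, with 0 at an unadjusted p under 0.05 and a median of -0.06. With the length trend removed these medians were -0.11 and -0.18, and with the block as well -0.10 and -0.18, against -0.20 for the 9 genes. DESeq2 and limma-voom likewise had 0 in both lists. With the block 3 of the 11 and 5 of the 14 fell, beside 4.0% of all tested genes. The largest blocked falls in the thin filament list were those of unc-87, a calponin-like actin bundler (blocked log2 fold change -0.29, blocked edgeR adjusted p = 0.00283), the calponin-related clik-1 (-0.23, 0.00542) and the actin act-1 (-0.19, 0.0117), whose reads are uncertain because the actin genes are near-identical. In the thick filament list they were the body wall myosin heavy chain unc-54 (-0.26, 0.00264), the essential light chain mlc-3 (-0.26, 0.00245) and the regulatory light chain mlc-2 (-0.25, 0.00233), uncertain because of its near copy mlc-1. Without pair 1 all 6 of these genes lost the call (blocked edgeR adjusted p from 0.226 for unc-87 to 0.394 for act-1), with log2 fold changes from -0.18 (act-1) to -0.28 (unc-87). Without pair 2 clik-1, act-1 and mlc-2 lost it (blocked edgeR adjusted p = 0.152, 0.0774 and 0.0627), and unc-87, unc-54 and mlc-3 kept it. Without pair 3 all of them kept it. The difference between these lists and the troponins was not tested.

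Genes that trigger contraction or anchor the filaments had medians that moved with the length trend. Of 14 genes for excitation and calcium handling and 17 for attachment, 0 passed edgeR, DESeq2 or limma-voom, 0 had an unadjusted edgeR p under 0.05, and the medians were 0.06 and -0.02. With the length trend removed they were -0.02 and -0.13. With the block 1 of the 14 and 3 of the 17 rose and 0 fell, beside 4.51% of all tested genes higher and 4.0% lower. The 1 was egl-19, the voltage-gated calcium channel of muscle (blocked log2 fold change 0.36, blocked edgeR adjusted p = 0.0177). The 3 were the integrin genes pat-2 (0.39, 0.00966) and pat-3 (0.23, 0.0365) and the kindlin gene unc-112 (0.29, 0.0304). The merged exon lengths of these genes are long, from 2485 nt (unc-112) to 6465 nt (egl-19). With the length trend also removed pat-2 alone of the 4 passed the threshold (0.28, blocked edgeR adjusted p = 0.0248). The others were then at 0.23 (egl-19), 0.20 (unc-112) and 0.13 (pat-3), with blocked edgeR adjusted p = 0.108, 0.0922 and 0.206. In that fit 2 of the 14 and 4 of the 17 fell, beside 6.41% of all tested genes lower and 3.30% higher. The call of egl-19 was lost without any 1 of the pairs (blocked edgeR adjusted p = 0.134, 0.155 and 0.0564 without pairs 1, 2 and 3). pat-2 and unc-112 lost it without pair 1 or pair 3, and pat-3 without pair 1 or pair 2. Without diquat library 3, in the fit without the block, pat-2 was at 0.07 against 0.42 with it, unc-112 at 0.06 against 0.29, egl-19 at 0.21 against 0.36 and pat-3 at 0.12 against 0.22. Of 5 muscle transcription factors tested, 0 passed any of these tests, and their median log2 fold change was 0.22; it was 0.03 without diquat library 3.

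The genes whose profile over the 6 libraries was most like the mean profile of the 9 genes were F41F3.3, grl-5, col-104, mlc-3 and hsp-12.2, among 5172 genes with a mean of at least 500 counts. Pearson's r of log2 CPM with that mean was 0.996, 0.995, 0.993, 0.989 and 0.989. grl-5 belongs to the ground-like family, col-104 is a cuticle collagen, mlc-3 the essential light chain above and hsp-12.2 a small heat shock protein. The points share library, depth and scaling, so these values describe the libraries. Of the 9 genes, each set against the mean it is part of, tnt-2 was closest (0.9754), while r was negative for tni-1 (-0.17) and tnt-3 (-0.82).

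Markers of muscle and of other tissues were read in the same libraries, whose total counts were 23390547 to 24593469. The 6 body wall muscle markers, of which none was at 0 counts, summed to 2390 to 3416 CPM in the diquat libraries and 3085 to 3526 CPM in the control libraries. 0 of 6 passed the edgeR threshold or had an unadjusted p under 0.05. With the block 2 of 6 fell (unc-54 and unc-15), beside 4.0% of all tested genes lower and 4.51% higher. These markers are no separate evidence, because unc-54, unc-15, myo-3, unc-22 and unc-89 are also in the thick filament list above. The 6 pharyngeal muscle markers, which include tnt-4 and tni-4, summed to 348 to 466 CPM in the diquat libraries and 400.0 to 439 CPM in the control libraries. Of these 6, 0 passed the edgeR threshold and 0 had an unadjusted p under 0.05. Sperm markers moved with the groups: 15 of 15 tested fell by edgeR, beside 0.913% of all tested genes lower. The marker lists were chosen with earlier results of these data known, so these counts describe the lists and are no test of them. The sperm list summed to 36.4 to 58.3 CPM in the diquat libraries and 109 to 134 CPM in the control libraries. Of 8 epidermis markers, which summed to 1003 to 1339 CPM in the diquat libraries and 1355 to 1676 CPM in the control libraries, 1 fell, the cuticle collagen bli-2, and 3 were lower at an unadjusted p under 0.05. With the block 3 of these 8 fell, namely bli-2 (-1.43), bli-1 (-0.91, blocked edgeR adjusted p = 0.0165) and col-19 (-0.49, blocked edgeR adjusted p = 1.1e-07). Of 9 oocyte and embryo, 8 intestine and 8 neuron markers 0 passed the edgeR threshold and 0 had an unadjusted p under 0.05. With the block 1 intestine marker rose (vit-5) and 1 fell (act-5), and 0 oocyte and embryo or neuron markers passed. The part of these markers in the troponin and tropomyosin values was not tested.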

How the data were processed

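The authors deposited 1 table of 20473 genes for the series, 20191 of them with a WormBase identifier. Per the file headers it gives a count per gene and library, whole numbers taken here as estimated counts rounded by the authors, and an FPKM per gene and library. The log2 fold change, p-value and FDR that the authors deposited come from a test that the sources used here do not name. HISAT2, RSEM, StringTie 1.3.1, fastp 0.18.0 and the build WBcel235 are named, without roles, in the submitters' processing notes; per the labels' protocols, poly(A) RNA was enriched and libraries were made with a kit for Illumina sequencing.

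Counts were fitted with edgeR 4.0.16 (R 4.3.3): TMM scaling, the default expression filter, a robust quasi-likelihood F-test with group as the only term, Benjamini-Hochberg adjustment over all 13252 genes tested and 0.05 as the threshold. A prior count of 2 entered log2 CPM. Each standard error was derived from the estimate and its F value. limma 3.58.1 (voom, and log2 of FPKM with a pseudocount of 1) and DESeq2 1.42.0 were alternatives, with other scalings, no count filter, each library left out, a replicate block, and removal of each library's lowess trend with exon length (Ensembl release 115, WBcel235). The scripts were tested on simulated data. Across genes, a library's deviation from its group mean correlated with that of the same-numbered library of the other group at 0.155, 0.200 and 0.459 (numbers 1, 2 and 3). All were above 0.1, the cut set for taking numbers as pairs. Deviations within a group sum to 0, so these values are not independent of each other. Diquat 2 with control 1 gave 0.208 and passes the same cut. The pairing of numbers 1 and 2 thus rests on the shared numbers alone, which the labels do not call pairs. The crossed pairing was not fitted. Within a group, every pair of libraries differed beyond sampling noise (lowest chi-square over its degrees of freedom, 15.5). 3 counts corresponded to 0.116 to 0.137 CPM in a library; intervals cover the spread between libraries only.

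The 9 genes, the gene lists and the tests were chosen with earlier results of these data known. Text names all 9 genes, tnt-4 and tni-4, up to 3 genes per muscle list past the threshold (first without, then with the block, by size of change) and the 5 genes most like the mean of the 9. tmd-1 of the thin filament list matched no symbol, and mls-1 and the sperm gene msd-3 were below the expression filter.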

Additional observations from a re-analysis of the deposited data

How the results depend on the processing

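Each of the 9 genes had 18 alternatives. Without the block none of the 13 alternatives put any of the 9 past the threshold; the lowest adjusted p was 0.179, for tnt-2 without control library 3. The other 7 genes, all but tni-1 and tnt-3, had a log2 fold change below 0 under all 18. tnt-3 was at -0.05 with the length trend removed, without and with the block (-0.049 and -0.049), and between -0.0030 and 0.19 with 1 library left out. tni-1, at -0.00030, changed sign: it was 0.0082 with DESeq2, 0.0020 with limma-voom, 0.040 with limma on FPKM, 0.0034 with RLE scaling, 0.0025 with no count filter, 0.0015 in the blocked fit, 0.028 after removal of the length trend, 0.029 with both, 0.069 with the block without pair 1, and between -0.070 and 0.069 with 1 library left out. The pairing of libraries by number decided the calls: with the replicate block 5 of the 9 passed as lower, and 5 when the length trend was taken out as well. The block gave 0 without pair 1, 4 without pair 2 and 5 without pair 3. Over all genes, 121 were lower and 0 higher without the block. DESeq2 had 2 higher, no count filter 2, and removal of the length trend 1. The block gave 530 lower and 598 higher, block and length removal together gave 849 and 437, and the block without pairs 1, 2 and 3 gave 181, 333 and 482 lower and 15, 329 and 436 higher. With 1 library left out 27 to 116 were lower and 0 to 1 higher; diquat library 1 (27), control library 2 (38) and control library 1 (71) moved the count most. Calls in the neighbouring lists also came with the block: 3 thin filament genes lower (5 with the length trend also removed), 5 thick filament genes lower (7), 1 excitation and calcium gene higher (0, with 2 lower) and 3 attachment genes higher (1, with 4 lower). The median of the thick filament list, -0.06, was -0.18 after length removal, -0.18 with the block as well, -0.15 without diquat library 3, -0.15 without control library 1, 0.05 without diquat library 1 and 0.04 without control library 3. That of the attachment list, -0.02, was -0.13 after length removal and -0.13 with the block as well. The cause of these shifts was not tested. Upper-quartile scaling put the median of all genes at -0.05. The lowest count carried a counting error of 0.785% (lev-11) to 5.35% (tnc-2), which for tnc-2 exceeds the spread of its diquat libraries (2.17%).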
